A study of Equus caballus with 10 samples.

Results

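Sperm RNA of 5 high-fertility stallions was compared between seasons, 3 sampled in spring (stallions 3, 4 and 9) and 2 in autumn (stallions 1 and 2). They were taken from a set of 10 arrays, 1 per animal, by the season and fertility class in the sample characteristics. All were male warmblood horses (Equus caballus) of breeding age at an insemination centre, and no treatment is recorded. The other 5 arrays hold low-fertility stallions, 2 from autumn and 3 from spring, and serve here for the spread and for 1 comparison. Each group differs by season and by animal together, since no stallion was sampled in both seasons. The sources used here do not say how fertility was classed, and the labels place the collection of 4 ejaculates from every stallion in the breeding season, autumn animals included. The title of the array of stallion 9 begins with the letters used for autumn titles, while its season field reads spring. It was kept in spring. The counts and a part of the gene and list results are also given with it counted as autumn.

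The horse breeds in long days: testis size, sperm output and testosterone are higher in spring and summer than in the short days of winter, under control of the pineal hormone melatonin and of gonadotropins. A mature spermatozoon makes almost no new RNA. Its transcripts are left from spermatogenesis in the testis, above all from the round and elongating spermatids that build the tail, the acrosome and the compact nucleus, with smaller amounts taken up in the epididymis and from accessory gland fluids.

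Values are log2 signals per probe set, so a difference of 1 is a 2-fold difference, and the table has a floor of 4 below which no value goes. Array medians were 5.44 and 5.10 in autumn and 5.27, 5.39 and 5.07 in spring (stallions 3, 4 and 9 in that order, as everywhere below). Stallions 2 and 9, 1 in each season, had the lower signal: 9.04% and 9.08% of their probe sets sat at the floor, against 3.05% to 6.21% on the other 3 arrays. Arrays of the same season correlated across probe sets with r from 0.844 to 0.907 (median 0.853, 4 pairs) and arrays of different seasons with r from 0.825 to 0.908 (median 0.857, 6 pairs). In a principal component analysis of the 5 arrays, component 1 (44.3%) put stallions 2 and 9 at -50.8 and -65.7 and stallions 1, 3 and 4 at 50.4, 22.2 and 43.8, which separated the low-signal arrays from the rest and not the seasons. On component 2 (24.3%) the seasons were apart, with both autumn stallions at 36.5 and 44.6 and the spring stallions at -49.3, -5.1 and -26.6. The sperm label was borne out by the markers: all 11 sperm and late spermatid markers were measured, with a mean signal from 9.76 to 11.58 over the 5 arrays. The 11 leukocyte markers measured of 12 averaged 5.15 to 5.46, close to the array medians, and 8 of them were below 6 on every array.

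No probe set differed between spring and autumn at an adjusted p of 0.05 in limma (0 of 30559, 0%), and the smallest adjusted p was 0.316. Without adjustment, 449 probe sets (1.47%) had a p under 0.05 with a higher mean in spring and 820 (2.68%) with a lower one, where 1528 in all would be met with no difference anywhere. All 3 spring arrays lay above both autumn arrays in 1907 probe sets (6.24%) and below both in 3020 (9.88%). Means were at least 1 log2 unit apart in 182 and 391 of these. Probe sets that carry no single gene name made up 43.5% of the former and 53.7% of the latter. With only 3 arrays against 2, such separation is also common where there is no difference. A lack of overlap therefore does not by itself mark a gene. With 1 probe set for each of 16661 symbols the counts at unadjusted p under 0.05 were 249 higher (1.49%) and 271 lower (1.63%), and 51.3% of symbols had a higher mean in spring. The balance of directions also turned on single arrays. Counting stallion 9 as autumn gave 1108 higher (3.63%) and 300 lower (0.982%), with none past the threshold, and 4164 (13.6%) above and 1673 (5.47%) below without overlap. Leaving out stallion 1 gave 1199 and 599, and leaving out stallion 2 gave 338 and 1353. Without stallion 9 there were 642 higher and 527 lower. The genes the results turn on are therefore given by their values on each array and the others by their difference, and none is called changed for season.

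**Figure D1:**
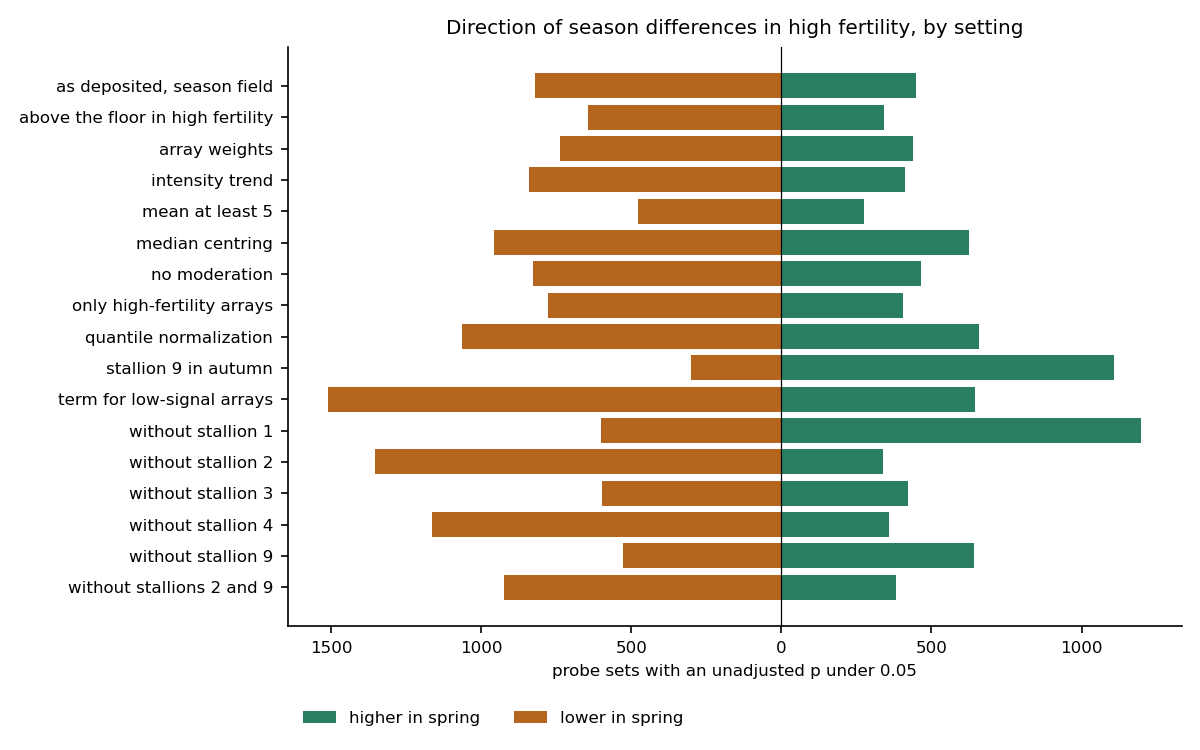
Number of probe sets with an unadjusted p under 0.05 for spring against autumn in high fertility, under each setting. Bars to the right count higher and bars to the left lower means in spring. The lower side is longer with all 5 arrays as labelled (820 against 449) and the higher side with stallion 9 as autumn (1108 against 300), without stallion 1 (1199 against 599) or without stallion 9 (642 against 527).

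The gene with the smallest p among those higher in spring was GALP, galanin-like peptide, a neuropeptide that in rodents stimulates the release of gonadotropin-releasing hormone. Its signal was 6.26 and 5.21 in autumn and 7.57, 7.50 and 7.40 in spring. The spring arrays were close together and all above autumn, by 1.75 ± 0.30 (SE), or 3.38-fold, with a limma adjusted p of 0.869. With stallion 9 counted as autumn the difference was 1.25. In the low-fertility stallions GALP lay between 7.04 and 7.56 in both seasons, at the level of the high-fertility spring arrays, so the 2 autumn arrays of high fertility were the low ones. The gap between stallion 9 and stallion 2, the arrays of like low signal, was 2.19.

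TLX2, a homeobox transcription factor of neural crest derivatives, had signals of 4.60 and 5.13 in autumn against 6.88, 6.39 and 7.43 in spring. It had the widest difference of the 12 genes with the smallest p on the higher side (2.04 ± 0.42, adjusted p = 1.0, limma). Its highest value was that of stallion 9, so the difference was 0.92 when that array was counted as autumn. SPIB, an ETS transcription factor of lymphoid cells, also had its highest value in stallion 9, with 4.59 and 4.78 in autumn and 5.77, 6.46 and 6.89 in spring. Its difference of 1.69 ± 0.39 became 0.69 with stallion 9 moved. CD70, the ligand of the lymphocyte receptor CD27, had 5.27 and 4.60 in autumn and 6.30, 6.21 and 5.91 in spring, 1.21 ± 0.25 higher, and 0.99 with stallion 9 moved. Over the same arrays the mean of the leukocyte markers was 5.28 to 5.46 in autumn and 5.15 to 5.41 in spring. Single markers went both ways. PTPRC had 5.90 and 6.48 against 6.87, 6.98 and 6.40, and CD3D had 6.46 and 5.08 against 5.10, 5.51 and 4.81. Whether leukocyte content differed was not tested.

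Several of the other leading genes have housekeeping or sperm roles. METAP1D, the mitochondrial methionine aminopeptidase, had 5.69 and 5.93 in autumn and 6.85, 7.25 and 7.18 in spring (difference 1.28 ± 0.27). PPM1G, a serine/threonine phosphatase, had 7.01 and 6.23 against 7.64, 7.82 and 7.85 (1.15 ± 0.24). For IQCG, a part of the dynein regulatory complex that mouse sperm need to form a tail, the values were 4.89 and 4.65 against 5.86, 5.70 and 5.52 (0.92 ± 0.21). In these 3 genes the spring arrays were 0.21 to 0.40 apart and the seasons did not overlap. UBE2E3, a ubiquitin-conjugating enzyme, had 4.40 and 4.83 against 5.84, 6.14 and 5.42 (1.19 ± 0.27). NDUFA12, a subunit of respiratory complex I, had 6.08 and 6.14 against 7.43, 6.92 and 7.11 (1.04 ± 0.25). With stallion 9 counted as autumn the differences of PPM1G, IQCG and NDUFA12 were 0.70, 0.76 and 0.73. The remaining leading genes on this side were STX6, a SNARE protein of the Golgi and endosomes (1.26), PDCD6, a calcium-binding protein (1.06), and ANKRD17, an ankyrin repeat protein (1.25). None of the 12 was past the threshold under any of the 16 alternative settings.

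**Figure D2:**
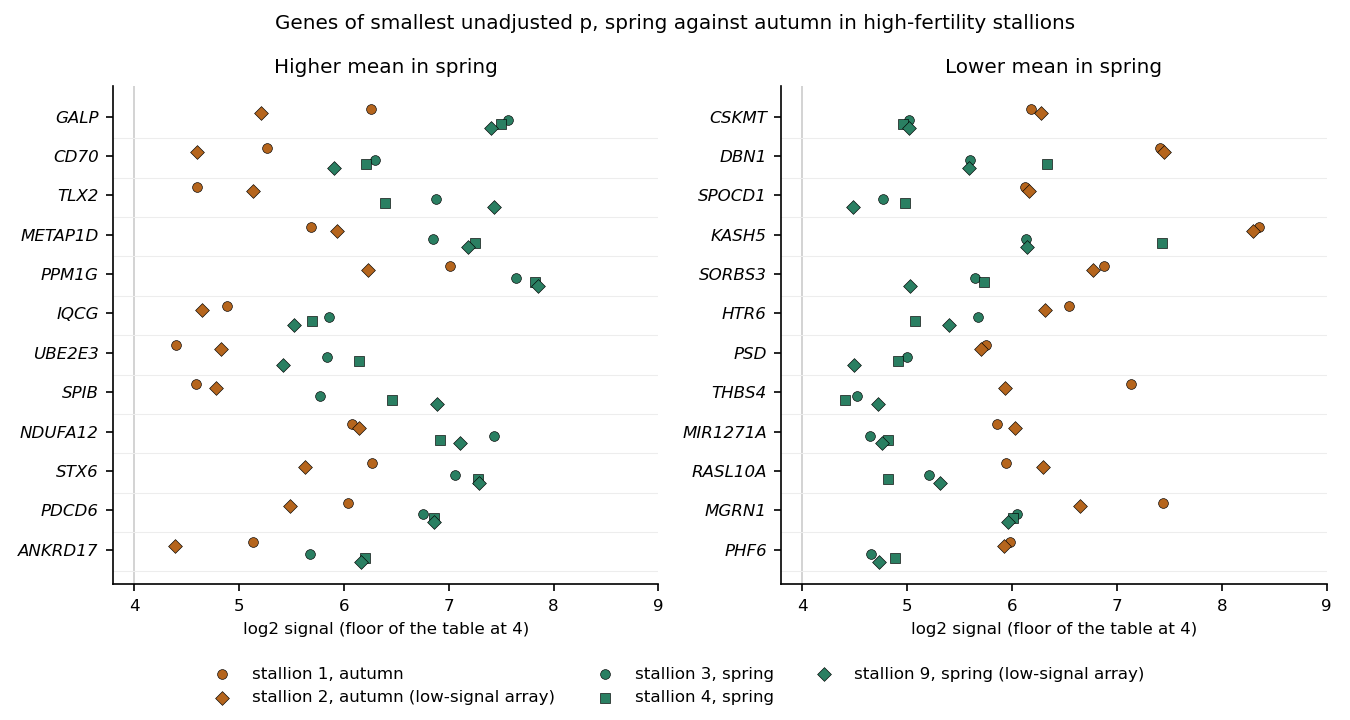
Log2 signal on each of the 5 high-fertility arrays for the 12 named genes per direction with the smallest unadjusted p among those whose seasons do not overlap. Brown symbols are autumn and green symbols spring, and diamonds mark the low-signal arrays of stallions 2 and 9. GALP had 5.21 and 6.26 in autumn and 7.40 to 7.57 in spring, and CSKMT 6.18 and 6.28 in autumn and 4.96 to 5.02 in spring.

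The largest differences on the higher side, among genes without overlap and with a group mean of at least 7, included 3 that were much smaller without stallion 2. ASPHD2, an aspartyl hydroxylase domain protein, had 9.24 and 5.84 in autumn and 9.39, 9.76 and 9.38 in spring. Its mean difference was 1.97 ± 0.85, but stallion 1 was close to the spring arrays, and without stallion 2 the difference was 0.27. RABEPK, an effector of the trafficking GTPase RAB9, had 6.99 and 4.91 against 8.09, 7.70 and 7.09 (1.68 ± 0.63, and 0.64 without stallion 2). RAB8A, a GTPase of membrane traffic to the cilium, had 7.14 and 5.12 against 7.21, 8.58 and 7.35 (1.58 ± 0.82, and 0.57 without stallion 2). TSPAN6, a tetraspanin of the cell membrane, differed from them: its autumn values of 7.85 and 7.30 were close to each other, against 9.47, 8.77 and 8.45 (1.32 ± 0.73), and the difference was between 1.03 and 1.60 with any 1 array left out.

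On the lower side the smallest p of a named gene belonged to CSKMT, the methyltransferase of mitochondrial citrate synthase. It had 6.18 and 6.28 in autumn and 5.02, 4.96 and 5.02 in spring. Both seasons were tight, and spring was lower by a log2 difference of -1.23 ± 0.19 (adjusted p = 0.663, limma). With stallion 9 counted as autumn the difference was -0.84. The low-fertility arrays lay between 5.62 and 6.06, between the 2 groups.

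The named genes lower in spring included 3 with roles in meiosis or the germline. KASH5, which in mouse meiosis links the telomeres at the nuclear envelope to the dynein motor, had 8.35 and 8.30 in autumn and 6.13, 7.43 and 6.14 in spring (-1.76 ± 0.38). SPOCD1, which in mice directs DNA methylation of transposons in fetal male germ cells, had 6.12 and 6.16 against 4.77, 4.98 and 4.48 (-1.40 ± 0.28). REC8, the meiotic cohesin subunit, had 6.60 and 6.71 against 5.80, 6.07 and 5.81 (-0.76 ± 0.18). In all 3 the autumn arrays were 0.04 to 0.11 apart. The 35 measured meiotic genes went both ways, with 18 higher and 17 lower in spring. Their median difference was 0.01, the same as the median over all symbols. In 2 of them all spring arrays lay above autumn (5.71%) and in 4 all lay below (11.4%), against 6.43% and 8.34% of all symbols. KASH5 and SPOCD1 are not in that list. CCNA1, a cyclin of male meiosis in mice given below, had a higher mean in spring.

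Other leading genes on this side belong to the cytoskeleton, signalling and the extracellular matrix. DBN1, the actin-binding protein drebrin, had 7.41 and 7.45 in autumn and 5.60, 6.33 and 5.59 in spring (-1.59 ± 0.31). SORBS3, the adhesion adaptor vinexin, had 6.88 and 6.77 against 5.65, 5.73 and 5.03 (-1.35 ± 0.30). THBS4, a matrix thrombospondin, had 7.13 and 5.93 against 4.52, 4.41 and 4.72 (-1.98 ± 0.45). All 3 spring values of THBS4 were near the floor, so its difference may be understated. Other leading genes had at least 1 value as low in their lower season, among them TLX2, SPIB, CD70, UBE2E3 and SPOCD1. The same limit may apply to them. The serotonin receptor HTR6 (-1.04), the ARF exchange factor PSD (-0.93), the small GTPase RASL10A (-1.0), the ubiquitin ligase MGRN1 (-1.04), the chromatin protein PHF6 (-1.20) and the microRNA gene MIR1271A (-1.21) completed the 12. Their autumn arrays were 0.05 to 0.79 apart.

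Among named genes without overlap and with a group mean of at least 7, the largest differences on the lower side were those of MKNK2, a kinase of the cap-binding factor eIF4E, and BRSK2, a kinase related to AMPK. MKNK2 had 8.43 and 7.84 in autumn and 5.74, 7.08 and 5.40 in spring (-2.06 ± 0.61). BRSK2 had 8.07 and 7.79 against 5.80, 7.24 and 5.01 (-1.91 ± 0.60). Stallion 4 was the highest spring array in both and stallion 9 the lowest. In the exchange factor VAV2, the ankyrin repeat protein ANKRD13B and the neuropeptide NPY stallion 9 was also the lowest of the 5 arrays. VAV2 had 7.48 and 7.06 against 5.87, 6.64 and 4.32, ANKRD13B had 9.09 and 8.79 against 7.60, 8.37 and 6.04, and NPY had 7.42 and 6.83 against 6.24, 6.36 and the floor. Their differences of -1.66, -1.60 and -1.59 became -1.01, -0.95 and -0.82 without stallion 9, and -0.03, 0.01 and 0.22 with it counted as autumn. SLC52A2, a riboflavin transporter, had 7.67 and 6.66 against 5.30, 5.66 and 5.25 (-1.76 ± 0.76), and -1.05 with stallion 9 moved. LY6G5C, a Ly6 family protein, had 7.33 and 7.28 against 5.03, 6.88 and 5.21 (-1.60 ± 0.69).

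Genes whose order did not turn on the season of stallion 9 were sought as those with an unadjusted p under 0.05 and the same sign under both labellings. There were 124 such probe sets higher and 84 lower in spring, 0.681% of all. Genes were named from those whose seasons also did not overlap under either labelling. On the higher side 3 of these had the smallest p under both labellings besides UBE2E3, ATP5PB and CD70. TMEM234, a membrane protein, had 5.54 and 5.26 against 6.53, 6.35 and 5.78 (0.82 ± 0.25, and 0.91 with stallion 9 as autumn). ABHD5, a coactivator of triglyceride lipase, had 4.54 and 4.38 against 5.36, 5.41 and 4.91 (0.77 ± 0.24, and 0.78). CLEC3B, the plasma protein tetranectin, had 5.30 and 5.14 against 6.04, 6.14 and 5.68 (0.73 ± 0.22, and 0.72). In each of them stallion 9 lay between the autumn arrays and the other spring arrays, which the rule of no overlap under either labelling requires.

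On the lower side SERPINA6, which encodes the corticosteroid-binding globulin of plasma, had 6.14 and 6.62 in autumn and 5.23, 4.48 and 5.62 in spring (-1.27 ± 0.34 under the season field and -1.27 with stallion 9 as autumn). SYTL1, an effector of the secretory GTPase RAB27, had 7.09 and 6.73 against 5.55, 5.63 and 6.10 (-1.15 ± 0.33, and -1.05). The potassium channel gene KCND1 had 6.13 and 6.34 against 5.25, 5.16 and 5.64 (-0.89 ± 0.22, and -0.83). MAP1B, a microtubule-associated protein, had 6.78 and 6.79 against 5.72, 6.01 and 6.43 (-0.73 ± 0.24, and -0.80). The calcium-dependent membrane-binding protein CPNE4 had a difference of -0.81 and, with stallion 9 moved, -0.78. Here too the rule placed stallion 9 between the autumn arrays and the other spring arrays. No adjusted p was below 0.05 under either labelling.

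Transcripts of late spermatids and of sperm structures had higher means in spring, with no member past the threshold. The late spermatid list, 40 measured genes of the last steps of sperm formation, had a mean level of 7.43 and 6.57 in autumn and 7.93, 7.94 and 6.65 in spring. The mean difference was 0.51 and the median 0.52, against a median of 0.01 over all symbols, and 36 of 40 genes had a higher mean in spring. All spring arrays lay above autumn in 6 genes (15%) and below in 0, against 6.43% and 8.34% of all symbols. Shares above of about this size or larger were not limited to late spermatid and tail genes. Glycolysis had 4 of 21 above and 1 below, and kinases and phosphatases 4 of 24 and 1. Heat shock and chaperonin genes had 5 of 34 above and 2 below, and antioxidant genes 5 of 34 and 1. The low-signal arrays of stallions 2 and 9 had the lowest levels. Among the other 3, stallion 1 was below stallions 3 and 4. Stallions 3 and 4 were 0.50 above stallion 1 while stallion 9 was 0.08 above stallion 2. The mean difference was 0.07 without stallion 2, 0.94 without stallion 1, 0.50 without stallions 2 and 9, and 1.05 with stallion 9 counted as autumn. A fit with a term for the low-signal arrays gave 0.31. Fewer cells of a type and less RNA per cell cannot be told apart. Whether array signal, animal or season lies behind these levels was not tested.

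SPATA18, which acts in mitochondrial quality control, had 9.56 and 8.40 in autumn and 9.91, 10.27 and 9.94 in spring (1.06 ± 0.55). SPATA20, a thioredoxin-like spermatid protein, had 7.53 and 6.87 against 7.81, 8.23 and 7.66 (0.70 ± 0.33). Both were among the 6 with no overlap, with PGK2, the phosphoglycerate kinase of sperm (5.15 and 5.08 against 5.87, 5.95 and 5.34), SPATA16 (5.77 and 5.69 against 6.38, 6.67 and 6.39), LELP1 (10.47 and 9.84 against 10.53, 11.06 and 10.55) and TEX38 (5.62 and 5.64 against 5.85, 6.35 and 5.84). CREM, the transcription factor that switches on spermatid genes in mice, had 7.70 and 6.96 against 8.02, 8.60 and 6.73 (0.45 ± 0.61), and its coactivator FHL5 had 6.71 and 4.54 against 8.63, 7.33 and 4.67 (1.25 ± 1.26). For both, stallion 9 was at the level of stallion 2, and the seasons overlapped. ACTRT2, an actin-related protein of the sperm head, had 6.35 and 6.48 against 7.22, 7.72 and 6.47, with stallion 9 level with autumn.

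The sperm chromatin list, 20 measured genes, had a mean difference of 0.21 with 14 genes higher. PRM1, the main protamine that packs sperm DNA, had the highest signals named here, 12.98 and 11.85 in autumn and 13.30, 13.43 and 12.33 in spring (0.60 ± 0.55). PRM2 had 9.67 and 7.92 against 11.19, 10.05 and 8.10 (0.98 ± 1.14). H2BC1, the testis histone H2B, had 6.01 and 5.61 against 5.95, 7.0 and 6.49 (0.67 ± 0.41), and CHD5, a remodeller needed for histone removal in mouse spermatids, had 9.04 and 8.13 against 7.78, 8.61 and 7.35 (-0.67 ± 0.43). The seasons overlapped in all 4. The list mean was -0.22 without stallion 2 and 0.63 without stallion 1, a change of sign, and 0.60 with stallion 9 counted as autumn.

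For the tail, the outer dense fibre and fibrous sheath list (23 measured) had a mean difference of 0.44 with 17 genes higher, and -0.15 without stallion 2. The list mean was 0.92 with stallion 9 counted as autumn. ODF1, a main outer dense fibre protein, had 11.16 and 9.88 against 12.06, 11.46 and 10.84 (0.93 ± 0.69), and ODF2 had 11.50 and 10.07 against 11.01, 11.75 and 10.98 (0.46 ± 0.45). SPA17, a fibrous sheath protein that binds protein kinase A anchors, had 10.33 and 7.97 against 11.37, 10.56 and 10.10 (1.53 ± 0.70). In both ODF1 and SPA17 stallion 2 was the lowest array. TCP11, which supports capacitation and motility in mice, had 7.92 and 7.46 against 8.54, 8.70 and 8.20 with no overlap (0.79 ± 0.45). FSIP2, a fibrous sheath scaffold, went the other way, with 8.38 and 8.60 against 7.33, 8.36 and 7.82 (-0.65 ± 0.41). The axoneme list (53 measured) had a mean difference of 0.23 with 38 genes higher and 8 without overlap above (15.1%), 0 below, where 51.3% of all symbols were higher, 6.43% lay above and 8.34% below. TEKT1, a tektin inside the doublet microtubules, had 6.85 and 5.63 against 8.17, 7.31 and 7.17 (1.31 ± 0.49), and IFT27, an intraflagellar transport GTPase, had 5.15 and 4.68 against 5.45, 5.93 and 5.98 (0.87 ± 0.32). The axoneme mean was -0.03 without stallion 2, 0.50 without stallion 1 and 0.31 in the comparison of stallion 9 with stallion 2.

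**Figure D3:**
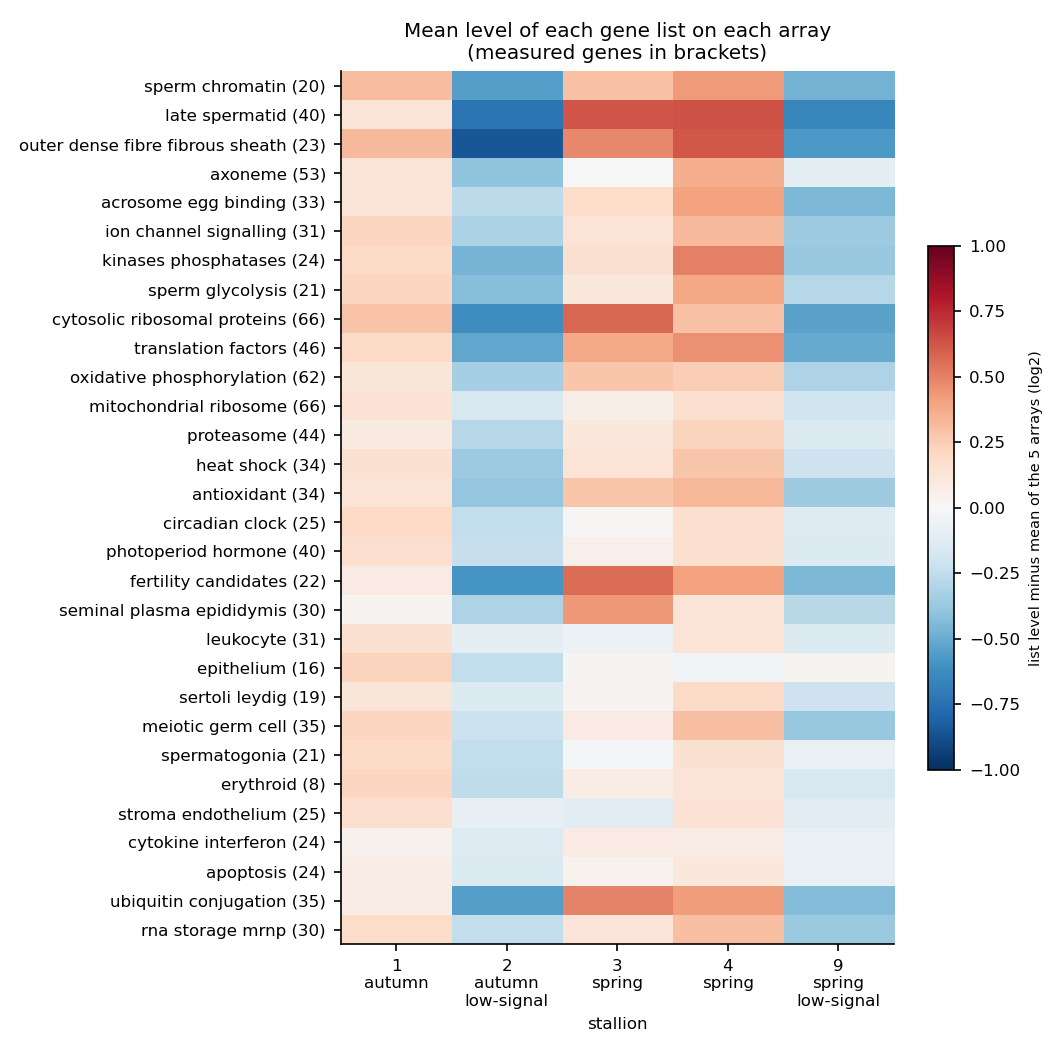
Mean log2 level of each gene list on each of the 5 arrays, relative to the mean of the 5, in colour, with the number of measured genes in brackets. Stallions 2 (autumn) and 9 (spring), the low-signal arrays, are low for most lists of abundant sperm genes, and stallions 3 and 4 are high for the late spermatid list (7.93 and 7.94 against 7.43 for stallion 1).

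Genes of the acrosome and of egg binding (33 measured) had a mean difference of 0.11, and 21 were higher. IZUMO3, of the family of the egg-binding protein IZUMO1, had 4.78 and 4.89 against 5.94, 5.58 and 5.06 (0.69 ± 0.33). SPESP1, a sperm equatorial segment protein, had 6.38 and 4.93 against 7.42, 6.98 and 6.04 (1.16 ± 0.56). DPY19L2, which anchors the acrosome to the nucleus, had 6.54 and 6.16 against 5.69, 6.41 and 4.94 (-0.67 ± 0.41). The acrosomal protease ACR differed by 0.20 ± 0.29, with overlapping seasons. Ion channel and signalling genes (31 measured) averaged 0.08: the anion transporter SLC26A8 had 5.59 and 5.33 against 5.85, 6.14 and 5.83 (0.48 ± 0.23), and the sperm sodium pump ATP1A4 had 5.35 and 4.92 against 5.67, 5.85 and 5.37 (0.49 ± 0.24). PDE4A, which degrades the motility messenger cAMP, had 7.70 and 6.89 against 5.80, 7.26 and 5.83 (-1.0 ± 0.58). Among kinases and phosphatases (24 measured, mean 0.23), TSKS, the substrate of testis-specific kinases, had 6.53 and 6.03 against 6.86, 6.83 and 6.78 (0.54 ± 0.25), and the phosphatase inhibitor PPP1R14C had 5.42 and 5.37 against 4.83, 4.78 and 4.39 (-0.73 ± 0.26).

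The lists of sperm energy supply and of the mitochondrial ribosome had mean differences from 0.01 to 0.18. The glycolysis list (21 measured) had a mean difference of 0.17 and a median of 0.12. In 4 of its genes all spring arrays lay above autumn, and in 1 all lay below. PGAM2, a phosphoglycerate mutase, had 7.16 and 6.71 in autumn and 8.06, 7.82 and 7.70 in spring (0.93 ± 0.24), and ALDOA, aldolase A, had 7.11 and 6.75 against 7.64, 7.77 and 7.14 (0.59 ± 0.24). Neither gene's seasons overlapped. PGAM1, the other mutase, had 5.13 and 4.65 against 4.51, 4.17 and 4.45 (-0.51 ± 0.24), the opposite order. GAPDHS, the sperm form of glyceraldehyde phosphate dehydrogenase, had 9.78 and 8.64 against 9.56, 9.60 and 8.12 (-0.12 ± 0.54), with the 2 low-signal arrays lowest. Oxidative phosphorylation genes (62 measured) had a mean and a median of 0.18, with 6 genes above (9.68%) and 7 below (11.3%) without overlap, against 6.43% and 8.34% of all symbols. Besides NDUFA12, these included the ATP synthase stalk subunits ATP5PB, with 7.17 and 5.85 against 8.01, 7.93 and 7.20 (1.20 ± 0.39), and ATP5PF, with 5.59 and 5.21 against 6.05, 6.03 and 5.95 (0.61 ± 0.19). The mitochondrial ribosome (66 measured) had a mean of 0.01, with MRPL51 higher (0.80 ± 0.32) and MRPS12 lower in spring (-0.65 ± 0.25).

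Cytosolic ribosomal protein genes (66 measured) had mean levels of 7.15 and 6.24 in autumn and 7.44, 7.16 and 6.33 in spring. Their mean difference was 0.28 and 53 genes were higher, where 51.3% of all symbols were. All spring arrays lay above autumn in 3 (4.55%) and below in 0, against 6.43% and 8.34% of all symbols. RPL27A was one of the 3 above, with 6.13 and 5.63 against 6.81, 6.55 and 6.55 (0.76 ± 0.27). RPS28 was another, with 7.31 and 7.31 against 8.13, 8.41 and 7.50 (0.70 ± 0.34). Without stallion 2 the list mean was -0.17, without stallion 1 it was 0.74, and with stallion 9 counted as autumn 0.73. Translation factors (46 measured) had the same mean of 0.28, and 0.69 with stallion 9 counted as autumn. EIF4E2, a cap-binding repressor, had 5.33 and 5.05 against 5.90, 6.11 and 5.66 (0.70 ± 0.25). EIF4EBP1, an inhibitor of eIF4E, had 7.37 and 6.56 against 8.41, 8.80 and 6.97 (1.09 ± 0.55), with stallion 9 between the autumn arrays. Among genes of RNA storage in germ cells (30 measured, mean 0.05), YBX2, which holds stored protamine messages in mouse spermatids, had 6.72 and 6.24 against 6.91, 7.82 and 7.27 (0.85 ± 0.32).

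Ubiquitin conjugation genes (35 measured) had a mean difference of 0.40 and a median of 0.47, with 28 higher, 4 without overlap above (11.4%) and 2 below (5.71%), against 51.3%, 6.43% and 8.34% of all symbols. UBE2C, the E2 enzyme of the anaphase-promoting complex, had 5.30 and 4.41 in autumn and 6.08, 6.46 and 5.81 in spring (1.26 ± 0.39). UBE2L3 had 6.42 and 5.36 against 7.11, 7.17 and 6.64 (1.08 ± 0.35). The list mean was 0.09 without stallion 2, 0.71 without stallion 1 and 0.38 without stallions 2 and 9. The proteasome (44 measured) averaged 0.16. Its assembly factor POMP, the member with the smallest p, had 5.16 and 4.61 against 6.11, 6.09 and 5.49 (1.01 ± 0.41). Heat shock and chaperonin genes (34 measured) averaged 0.17. The chaperonin subunits CCT5 and CCT3 had differences of 1.02 ± 0.39 and 1.01 ± 0.40, each with stallion 2 lowest. Antioxidant genes (34 measured) averaged 0.21: PRDX5, a peroxiredoxin, had 6.07 and 6.49 against 6.68, 7.06 and 7.04 (0.65 ± 0.21), GSTM3, a glutathione transferase, had 7.62 and 7.19 against 8.28, 8.46 and 7.80 (0.78 ± 0.31), and SOD1, superoxide dismutase, had 6.25 and 6.19 against 6.94, 6.98 and 6.35 (0.54 ± 0.28).

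Clock and photoperiod genes had mean differences near 0. The circadian clock list (25 measured) had a mean difference of 0.04, 13 genes higher and 12 lower, and in 0 of 25 did the seasons separate, against 6.43% above and 8.34% below of all symbols. CSNK1D, a kinase of the PER proteins, had 7.86 and 6.80 against 7.76, 8.67 and 7.64 (0.69 ± 0.44). NR1D1, the repressor REV-ERB alpha, had 6.66 and 6.10 against 6.13, 5.96 and 5.87 (-0.39 ± 0.25). CLOCK differed by 0.42 ± 0.32. The photoperiod and hormone list (40 measured) had a median of -0.02, with 4 genes above (10%) and 5 below (12.5%) without overlap, against the same 6.43% and 8.34%. Apart from GALP these included the growth factor receptor IGF1R, with 4.83 and 4.63 against 5.41, 5.02 and 5.51 (0.58 ± 0.24). DIO2, the deiodinase that activates thyroid hormone in long days in the brain, had 5.86 and 5.76 against 5.43, 5.45 and 4.76 (-0.60 ± 0.27). ASMT, the last enzyme of melatonin synthesis, had 6.65 and 6.0 against 5.78, 5.85 and 5.82 (-0.51 ± 0.27). The melatonin receptors MTNR1A and MTNR1B differed by 0.03 ± 0.25 and -0.09 ± 0.28, with overlapping seasons.

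Transcripts of accessory gland and epididymal proteins varied widely among the spring animals. BSP1, a binder of sperm protein secreted by the accessory glands, had 4.59 and 4.72 in autumn and 8.40, 7.19 and 4.70 in spring. Stallions 3 and 4 were high and stallion 9 was at the autumn level, so the difference of 2.11 ± 0.84 became 3.12 with stallion 9 counted as autumn, at an adjusted p of 0.185 (limma). The low-fertility arrays lay between 4.30 and 4.86. CRISP3, a seminal plasma protein of stallions, had 5.01 and 4.96 against 7.52, 4.86 and 4.25, and the lipocalin LCN2 had 5.09 and 4.57 against 8.22, 5.40 and 5.20. In both, stallion 3 alone was high. Clusterin (CLU), a chaperone of seminal fluid, had 5.36 and 6.05 against 7.09, 6.71 and 6.32 (1.0 ± 0.39), without overlap. ADAM7, an epididymal protein carried on sperm, had 6.09 and 6.27 against 6.79, 6.66 and 6.66 (0.52 ± 0.29). Over the 30 measured genes of the list the mean difference was 0.23, and 0.06 without stallion 2 or without stallion 3. CRISP1, an epididymal protein, had 4.78 and 4.33 against the floor, 4.43 and 4.35, and SPINK1, a trypsin inhibitor, had 4.09 and 4.36 against 4.01, 4.05 and 4.04, so neither was high in a spring animal. The 6 epididymis and accessory gland markers measured of 9 had a mean of 4.82 and 4.83 in autumn and 6.54, 5.44 and 4.81 in spring. The 22 stallion fertility candidates measured, which share BSP1, CLU and SPA17 with other lists, had a mean difference of 0.43, 0.09 without stallion 2.

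**Figure D4:**
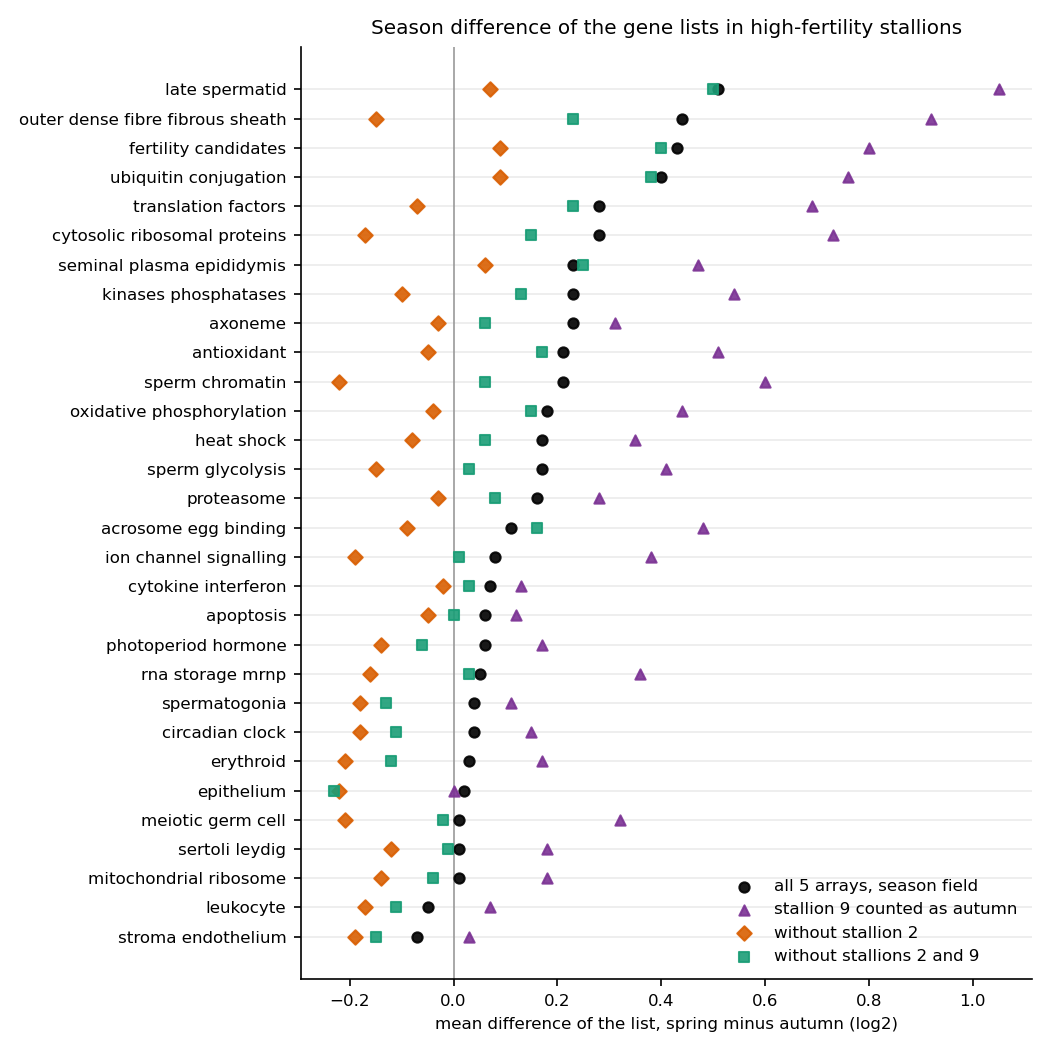
Mean spring minus autumn difference (log2) of each gene list under 4 settings. With all 5 arrays 28 of 30 lists lie above 0, with stallion 9 as autumn 29, and without stallion 2 only 4. The late spermatid list runs from 0.07 without stallion 2 to 1.05 with stallion 9 as autumn.

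Lists of other cell types had mean differences near 0. The 31 measured leukocyte genes had a mean difference of -0.05, with LAPTM5, a lysosomal protein of blood cells, lower in spring (6.03 and 6.19 against 4.87, 5.64 and 4.81) and ITGAM, an integrin of myeloid cells, higher (5.24 and 5.50 against 5.90, 6.20 and 6.21). Epithelial genes (16 measured) averaged 0.02: MUC1 had 5.25 and 5.20 against 6.14, 6.29 and 5.84, and the tight junction protein CLDN3 had 7.03 and 6.46 against 5.99, 6.22 and 6.39. Sertoli and Leydig genes (19 measured) averaged 0.01, spermatogonial genes (21) 0.04, erythroid genes (8) 0.03 and stromal and endothelial genes (25) -0.07. With all 5 arrays 28 of the 30 lists had a mean above 0, and with stallion 9 as autumn 29 did. Without stallion 2 it was 4, as 24 lists changed sign. Fewer changed sign elsewhere: 10 without stallion 4 (18 above 0), 9 with a term for the low-signal arrays and 9 without stallions 2 and 9 (19 above 0 in each).

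Whether the season difference differed between fertility classes was tested as an interaction. It passed for 1 probe set of 30559 (0.00327%), LOC100061699, an uncharacterised gene, by -4.78 ± 0.38 (adjusted p = 0.0148, limma). Its signal in high fertility was 6.15 and 6.18 in autumn and 5.91, 5.48 and 5.60 in spring, a difference of -0.50. In low fertility it was 11.14 and 11.03 in autumn and 5.43, 6.26 and 5.72 in spring. The 2 low-fertility autumn stallions were high and the other 8 arrays low, so the high-fertility stallions showed little difference by season in this gene. Its interaction lost the call with any 1 high-fertility array left out, at adjusted p from 0.0683 to 0.196, while the difference stayed between -4.66 and -4.87, and without moderation (adjusted p = 0.148).

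For none of the genes that led the high-fertility comparison did the interaction pass. It was closest, by unadjusted p, for CD70 (-1.66 ± 0.35), where the low-fertility stallions had a difference of -0.46, and for DBN1 (1.94 ± 0.44), where they had 0.35. PLXNA4, a semaphorin receptor, had 5.12 and 5.25 in autumn and 4.74, 4.66 and 4.52 in spring (-0.55), against 0.77 in low fertility. PHRF1, a nuclear ubiquitin ligase, had 8.23 and 7.77 against 6.99, 7.32 and 6.78 (-0.97), against 0.90 in low fertility. HES7, a Notch pathway repressor, had 5.59 and 5.22 against 6.28, 5.92 and 6.01 (0.67), against -1.05. GM2A, the lysosomal GM2 activator, was nearly level in high fertility (5.76 and 5.83 against 5.89, 6.04 and 6.13) and differed by -2.66 in low fertility. Of the lists, 28 had a mean above 0 in high fertility and 2 in low fertility. The late spermatid list had a mean of 0.51 in high and -0.31 in low fertility, where the third low-signal array is a spring animal, and the season medians over symbols were 0.01 and -0.102. No test of that contrast between lists was made.

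**Figure D5:**
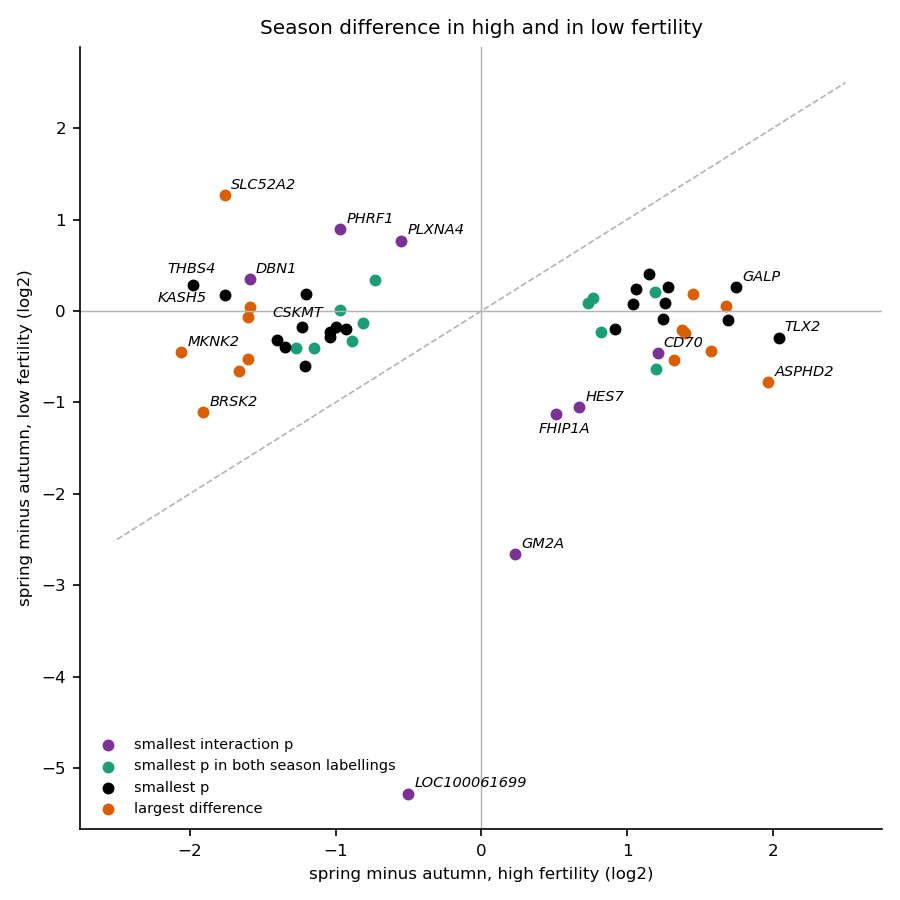
Spring minus autumn difference (log2) of the leading named genes in high fertility (horizontal) and in low fertility (vertical), coloured by why each gene was named. The dashed line marks equal differences. Most leading genes of high fertility lie near 0 in low fertility, such as GALP (1.75 and 0.26) and CSKMT (-1.23 and -0.18), and LOC100061699 lies apart at -0.50 and -5.28. The leading genes were picked by their values in high fertility, so smaller differences in low fertility do not show a trait particular to high fertility.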

How the data were processed

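The authors deposited log2 signals, 1 per probe set, to 2 decimals with a floor of 4. Affymetrix Expression Console 1.1 and GCOS 1.1.1 are listed, with no role, per the submitters' processing notes. The sources used here give no background, summarisation or scaling step. Values were tested as deposited. Precision is limited by the few arrays.

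The 4 group means were fitted to all 10 arrays with limma 3.58.1 in R 4.3.3, which gives the groups 1 common spread (6 residual degrees of freedom and 2.955 from the prior). The contrast was spring minus autumn in high fertility, and the interaction was this difference in low minus that in high fertility. Tests were two-sided, with Benjamini-Hochberg adjustment over 30559 probe sets and a threshold of 0.05. SE is that of the fitted difference. On simulated arrays of the season comparison (30559 probe sets, 50 changed at each size) the fit recovered 10% of differences of 1 log2 unit. It recovered 52% of 2, 84% of 3 and 94% of 4, with 8 false calls in all. Changes were planted only in probe sets with a mean above the highest array median. Values were drawn independently, without the floor and without a signal shift shared across an array. The rates therefore do not give the power or the error of the real comparison.

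A platform annotation, in which symbols can be old, gave 16789 probe sets 1 symbol, 343 several and 13427 none (43.9%). Only the first kind is named. Array controls were not marked as such and were tested with the rest.

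Genes were named by rule, from which a selection is printed: per direction the 12 smallest p, the 8 largest differences with a group mean of at least 7, and the 4 smallest interaction p among genes whose seasons do not overlap. Further rules took the 6 smallest p under both labellings of stallion 9, without overlap under either, and for each list the 4 smallest p and the first 2 members. SPATA16, LELP1 and TEX38 (to complete a count), SPINK1, PTPRC and CD3D were named after their values were seen. The comparison, the 30 lists (1135 genes, 941 measured, each by its probe set of highest mean) and the rules were chosen with earlier results of these data known. Alternatives were array weights, an intensity trend, no moderation, only the high-fertility arrays, median centring, quantile normalization, filters on the floor and on a mean of 5, stallion 9 in autumn, each high-fertility array left out, stallions 2 and 9 left out, for the lists all probe sets of a gene averaged or no LOC symbols in the background, and, chosen after seeing the data, a term for the low-signal arrays of stallions 2, 9 and 10.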

Additional observations from a re-analysis of the deposited data

Results flagged for a closer look

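LOC100061699 differed between the fertility classes in its season difference, by a tested interaction of -4.78 on the log2 scale. The spring minus autumn difference was -5.28 in low fertility and -0.50 in high fertility, and its 2 low-fertility autumn arrays read 11.14 and 11.03 against 5.43 to 6.26 on the other 8. The interaction lost the call without moderation and with any 1 high-fertility array left out, where the difference stayed between -4.66 and -4.87. It rests on those 2 animals, for which season and animal cannot be told apart.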

How the results depend on the processing

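With moderation and all arrays no probe set passed for season under any scaling or filter. Without moderation 1 unnamed probe set did (15099603, 5.14 and 5.18 in autumn against 4.06, 4.08 and 4.00, adjusted p = 0.0184), and with 1 array left out the count was 0 to 1. The 1 was GC, named after its values were seen, at 4.72 in stallion 1, 9.95 in stallion 2 and 5.10 to 5.33 in spring, when stallion 1 was left out. Counts at unadjusted p under 0.05 were 276 higher and 476 lower with a mean of at least 5, 1108 and 300 with stallion 9 in autumn, and 338 to 1199 and 527 to 1353 with 1 array left out. The term for low-signal arrays gave 1509 lower. Probe sets without overlap were 1196 above and 1858 below with a mean of at least 5, 4164 and 1673 with stallion 9 in autumn, 7597 and 12787 without stallions 2 and 9, and 2862 to 9605 and 4080 to 11277 with 1 array left out, where fewer arrays make overlap rarer. The interaction count was 0 without stallions 2 and 9 and 0 to 1 with 1 array left out. The 1 found without stallion 1, and the 1 without moderation, was a probe set other than LOC100061699. List means with 1 array left out ran from -0.18 to 0.27 for clock genes, -0.22 to 0.25 for epithelium (-0.23 without stallions 2 and 9), -0.18 to 0.27 for spermatogonia and -0.21 to 0.26 for erythroid genes, and cytokine and interferon genes averaged 0.20 with a mean of at least 5. Of 117 genes followed through 16 alternatives, 11 changed sign in at least 1: with stallion 9 in autumn ANKRD13B (0.01), NPY (0.22), CHD5 (0.02), DPY19L2 (0.17) and GAPDHS (0.73), which also read 0.08 with array weights and up to 0.45 with 1 array left out (from -0.69), MTNR1B (0.03, -0.26 to 0.08 with 1 array left out, 0.13 without stallions 2 and 9), ODF2 (-0.25 to 1.18 with 1 array left out, -0.12 without stallions 2 and 9), CLOCK (-0.12 to 0.95 with 1 array left out, -0.09 without stallions 2 and 9), and, with 1 array left out, CRISP3 (-0.43 to 1.21), ACR (-0.08 to 0.39) and MTNR1A (-0.14 to 0.17). The lowest adjusted p of any of them was 0.134. The causes were not tested. No paired analysis was possible because each stallion number belongs to 1 array of 1 season.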

Other observations

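Unnamed probe sets made up 66 of the 100 smallest p. The smallest of all belonged to probe set 14988232, unnamed in the annotation used here, with 6.21 and 6.11 in autumn and 4.11, 4.00 and 4.00 in spring. Its difference of -2.12 ± 0.24 had a limma adjusted p of 0.316, with the spring arrays at or near the floor.

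Cytokine and interferon genes (24 measured) had a mean difference of 0.07. ISG15, a ubiquitin-like protein induced by interferon, had 5.51 and 5.17 in autumn and 6.12, 5.98 and 5.77 in spring (0.62 ± 0.25). Apoptosis genes (24 measured) averaged 0.06, with 0 above and 2 below without overlap (8.33%), against 6.43% and 8.34% of all symbols. FASLG, the ligand of the death receptor FAS, had 5.48 and 5.46 against 4.97, 5.01 and 4.82 (-0.54 ± 0.23). CCNA1, the cyclin of male meiosis in mice, had 4.89 and 4.72 against 5.23, 5.78 and 5.91 (0.83 ± 0.34). KDR, the endothelial receptor of vascular growth factor, had 5.46 and 4.85 against 4.57, 4.78 and 4.29 (-0.61 ± 0.27). No adjusted p of these genes was below the threshold.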
